A study of Mus musculus with 6 samples.

Results

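A set of 10 genes of the hepatic acute phase response was followed in the livers of mice after vertical sleeve gastrectomy. They encode the 3 orosomucoids (Orm1, Orm2 and Orm3), haptoglobin (Hp), hemopexin (Hpx), lipocalin 2 (Lcn2), the LPS binding protein (Lbp), the pentraxins Crp and Apcs, and ceruloplasmin (Cp). These 10 of the 55385 genes in the count table were chosen by name, with their difference between the operated and the sham mice already known. Their levels in that comparison are therefore given as a description, and an adjusted p is printed for other genes only.

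The data are poly(A) RNA-seq libraries of 6 male mice, wild-type C57BL/6 by the study's methods. Mice of 6 to 8 weeks of age received a high-fat diet (HFD) for 10 weeks, then vertical sleeve gastrectomy (VSG, bariatric surgery in which the greater part of the stomach is cut away and a narrow tube remains) or a sham operation. They stayed on the HFD for another 12 weeks before the liver was taken. Each library came from 1 liver, and the libraries are called Sham 1 to Sham 3 and VSG 4 to VSG 6 as in their labels. There was no group without HFD and no earlier time point.

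The acute phase response is the change in plasma proteins made by the liver during infection, injury or inflammation. Interleukin 6 (IL-6) signals in hepatocytes through the receptor chains Il6ra and Il6st to the transcription factor Stat3, and interleukin 1 and tumour necrosis factor act through NF-kB, often together with C/EBP factors and glucocorticoids. Positive acute phase proteins are then secreted in larger amounts, while negative ones such as albumin are secreted less. The 10 proteins do different work in plasma: orosomucoids carry lipids and drugs, haptoglobin and hemopexin capture free haemoglobin and haem, Lcn2 and Lbp bind bacterial products, pentraxins mark microbes and dying cells, and ceruloplasmin carries copper and oxidises iron.

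Total counts per library ran from 22804397 to 24191778. Levels are given as CPM (counts scaled to library size with TMM, with factors from 0.897 to 1.15), and 14454 genes passed the filter on low counts. By edgeR's quasi-likelihood test with Benjamini-Hochberg adjustment, 2118 genes (14.7%) passed an adjusted p of 0.05, of which 981 (6.79% of those tested) were higher and 1137 (7.87%) lower after VSG. Every VSG library lay above every sham library for 2863 genes (19.8%). The count of 2118 became 1214 without Sham 1, 797 without Sham 2, 159 without Sham 3, 1076 without VSG 4, 2732 without VSG 5 and 210 without VSG 6. The hepatocyte marker list was abundant in all 6 libraries, with summed levels of 29746 to 44040 CPM in sham livers and 25313 to 38255 CPM after VSG. Of its 12 genes, 2 fell and 10 did not pass the test, and the count of 2 became 1 without Sham 1 or VSG 4, 0 without Sham 2, Sham 3 or VSG 6, and 4 without VSG 5.

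All 10 acute phase genes passed the filter, and all 10 were higher after VSG with no overlap between the groups, as were 19.8% of all genes tested. That count is no result, because the genes were chosen with it known. Their median log2 fold change was 2.13, against 0.03 over all genes tested, and the values ran from 0.89 for Crp to 5.33 for Orm2. Together they held 1.35%, 0.896% and 1.31% of all counts in Sham 1, 2 and 3 and 6.62%, 2.39% and 5.14% in VSG 4, VSG 5 and VSG 6. The mean share was 1.19% ± 0.253 in sham and 4.72% ± 2.15 in VSG livers (SD, n = 3).

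**Figure D1:**
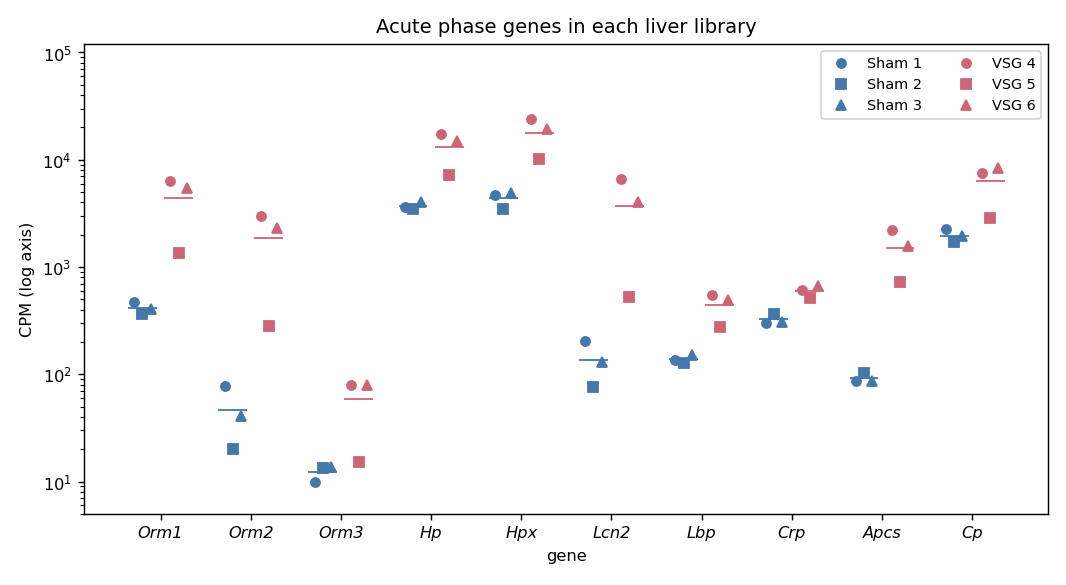
CPM (log axis) of each acute phase gene in every library, with 3 sham (blue) and 3 VSG (red) points per gene and a line at each group's mean. For all 10 genes the VSG points lie above the sham points, VSG 5 (square) is the lowest VSG point, and the gap is narrowest for Orm3, at 13.6 CPM in the highest sham and 15.2 CPM in the lowest VSG library.

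For 10 of 10 genes the VSG libraries were spread over a wider fold than the sham libraries, from 1.29 times between the highest and the lowest for Crp to 12.6 times for Lcn2, against 1.17 times for Hp to 3.91 times for Orm2 among the sham libraries. VSG 5 was the lowest VSG library for 10 of 10 genes, while it was the lowest for 36% of all genes tested and for 54.6% of the genes called higher after VSG. VSG 4 was the highest for 8 of the genes and VSG 6 for the other 2, Crp and Cp. VSG 4 was the highest for 39% of all genes tested and for 48.8% of those called higher. Among the sham libraries, Sham 2 was the lowest for 7 of 10, against 36.5% of all genes tested and 37.5% of those called higher. Because the mice were not measured before the operation, a difference between animals cannot be told apart from a difference in their response. Without VSG 5 the median log2 fold change of the 10 genes was 2.47, and without VSG 4 it was 1.84.

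**Figure D2:**
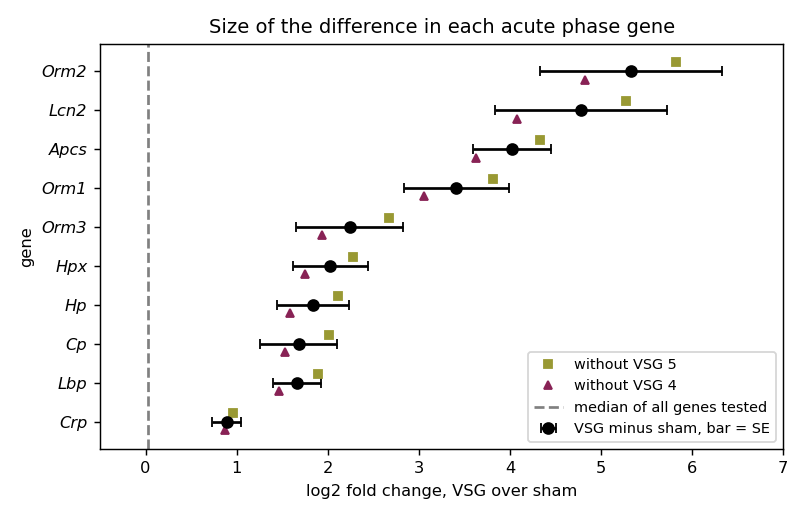
Log2 fold change (VSG over sham) of each acute phase gene with its standard error as a bar, and the same value without VSG 5 (squares) and without VSG 4 (triangles). The genes run from 0.89 for Crp to 5.33 for Orm2, all to the right of the dashed median of all genes tested at 0.03.

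Orosomucoids, also called alpha-1-acid glycoproteins, belong to the lipocalin family and bind basic and neutral drugs and lipids in plasma. Mouse has 3 such genes side by side on chromosome 4 (GRCm38), all on the plus strand. Orm1 (ENSMUSG00000039196.2) lies at chr4:63344560-63348163, Orm3 (ENSMUSG00000028359.4) at chr4:63356162-63359511 and Orm2 (ENSMUSG00000061540.3) at chr4:63362449-63365878. The transcripts of the GENCODE M21 annotation were 91% identical between Orm1 and Orm2, 86.4% between Orm1 and Orm3 and 88.3% between Orm2 and Orm3. Of all 50-base windows of each transcript, 79.6% of those of Orm1, 78.2% of Orm2 and 96.4% of Orm3 occurred in neither of the other transcripts, and with 100 bases the shares were 93%, 93% and, for Orm3, all windows. The read length and the treatment of reads that fit several genes were not given in the sources used here, so a part of the reads of Orm1 and Orm2 may have been exchanged or dropped.

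The stretch of 60 coding bases in which the 3 genes differ most is shown as an example of the differences by which their reads can be told apart. It differs at 17 positions (capitals), 11 of them between Orm1 and Orm2, 13 between Orm1 and Orm3 and 11 between Orm2 and Orm3. The bases are at chr4:63345114-63345173, chr4:63362989-63363048 and chr4:63356616-63356675 (GRCm38, plus strand), each inside 1 exon, and come from the GENCODE M21 transcripts.
Orm1: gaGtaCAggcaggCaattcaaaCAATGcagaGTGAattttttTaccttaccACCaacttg
Orm2: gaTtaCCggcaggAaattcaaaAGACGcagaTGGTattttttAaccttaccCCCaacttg
Orm3: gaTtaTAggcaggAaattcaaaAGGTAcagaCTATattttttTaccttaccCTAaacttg

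Orm1 was the most abundant of the 3 in every library. Its level was 469, 361 and 406 CPM in Sham 1, 2 and 3 and 6274, 1360 and 5483 CPM in VSG 4, 5 and 6. The lowest VSG library was 2.9 times the highest sham library, and the log2 fold change was 3.41 (SE 0.575), or 10.6-fold.

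Orm2 had the largest fold of the 10 genes. It stood at 78.3, 20.0 and 40.5 CPM in the sham libraries and at 2976, 284 and 2330 CPM in the VSG libraries. That is a log2 fold change of 5.33 (SE 0.995), or 40.3-fold. Its sham libraries already differed by 3.91 times and its VSG libraries by 10.5 times, so the size of the difference is loosely known. It was 5.94 without Sham 1 and 4.82 without VSG 4.

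Orm3 was the least abundant orosomucoid and came closest to an overlap between the groups. Its level was 9.97, 13.5 and 13.6 CPM in sham livers and 80.0, 15.2 and 79.6 CPM after VSG, so VSG 5 was only 1.12 times the highest sham library. Its log2 fold change was 2.24 (SE 0.584).

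The makeup of the orosomucoid counts shifted along with their amount. Orm2 held 14%, 5.07% and 8.8% of the counts of the 3 genes in sham livers and 31.9%, 17.1% and 29.5% after VSG, a mean of 9.3% ± 4.5 against 26.2% ± 7.94 (SD, n = 3). Orm1 held 88% ± 3.68 in sham and 72.9% ± 7.94 in VSG livers, without overlap between the groups. Orm3 held 2.72% ± 0.839 and 0.928% ± 0.0762. These shares rest on the same counts as the folds above and carry no test.

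**Figure D3:**
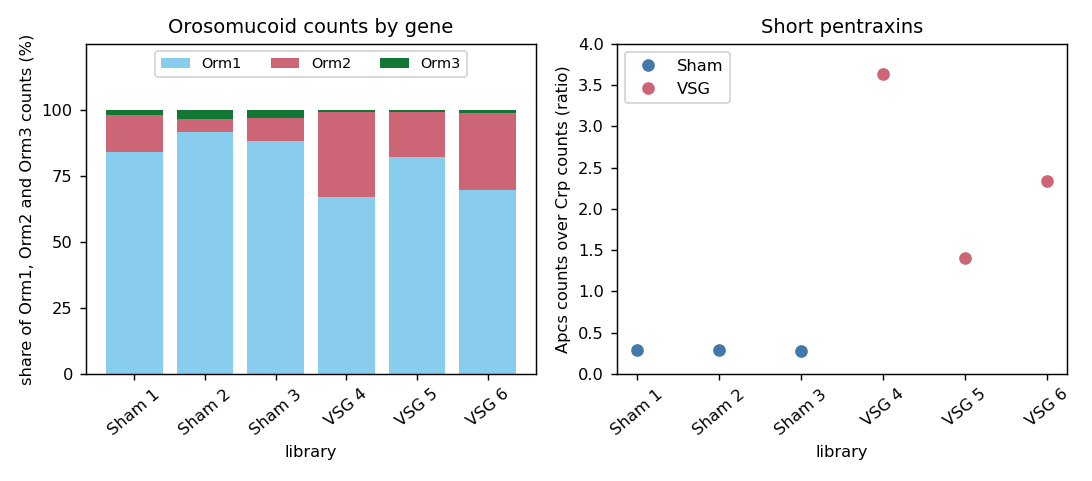
Left, the share (%) of Orm1, Orm2 and Orm3 in their summed counts in each library, and right, the ratio of Apcs to Crp counts in each library (sham blue, VSG red). The Orm2 share is at most 14% in sham and at least 17.1% in VSG libraries, and the ratio is below 0.3 in every sham library and between 1.41 and 3.63 in the VSG libraries.

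RefSeq promoter entries (GRCm38.p6) were at hand for 7 of the 10 genes, Orm2, Orm3, Hpx, Lcn2, Crp, Apcs and Cp, with 2 start sites for Cp. The promoters of Orm2 and Orm3 are printed as the upstream ends of a neighbouring gene pair whose folds differed widely. The 140 bases before the start site are at chr4:63362309-63362448 for Orm2 and at chr4:63356018-63356157 for Orm3, both on the plus strand. Over the 250 bases before the start they were 85.9% identical. Capitals mark matches to the letters TTNNGNAA, a loose form of the C/EBP site, on either strand.
Orm2: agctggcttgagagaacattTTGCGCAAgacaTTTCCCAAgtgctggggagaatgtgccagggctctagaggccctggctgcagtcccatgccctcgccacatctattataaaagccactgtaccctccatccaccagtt
Orm3: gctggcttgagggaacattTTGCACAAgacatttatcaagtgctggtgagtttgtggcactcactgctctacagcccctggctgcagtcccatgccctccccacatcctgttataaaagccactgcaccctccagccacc
Orm2 held 2 such matches, which begin 120 and 108 bases before the start site, and Orm3 held 1, 121 bases before it.

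Short motifs, 5 in all, were searched on both strands in the 250 bases before each start site, and no matches overlapped each other in these genes. The C/EBP letters TTNNGNAA were found in 6 of the 7 genes (all but Apcs) and in 36.8% of 32851 promoters. The STAT letters TTCNNNGAA were found in Apcs alone among the 7 genes and in 7.02% of all promoters, and the IL-6 response letters CTGGGAA likewise in Apcs and in 9.1%. The NF-kB letters GGNNTTTCC were found at 1 start site of Cp and in 4.93%, and the glucocorticoid half-site TGTTCT in Orm2, Crp, Apcs and Cp and in 16.1%. A match is a matter of letters only, and longer or looser forms of these sites were not searched.

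Haptoglobin and hemopexin protect tissues from the contents of broken red cells. Haptoglobin binds free haemoglobin for uptake by the macrophage receptor Cd163, and hemopexin binds haem for uptake by Lrp1. Hp (ENSMUSG00000031722.10) lies at chr8:109575128-109579172 on the minus strand and Hpx (ENSMUSG00000030895.9) at chr7:105591613-105600137 on the minus strand. Per base of transcript they were the most abundant of the 10 genes in both groups.

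Hp stood at 3623, 3442 and 4040 CPM in the sham libraries and at 17429, 7163 and 15081 CPM in the VSG libraries. Its sham values lay within 1.17 times of each other. The log2 fold change was 1.84 (SE 0.392), or 3.57-fold, and Hp alone took 0.391% ± 0.0642 of all counts in sham and 1.25% ± 0.496 in VSG livers (SD, n = 3).

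Hpx stood at 4692, 3487 and 4931 CPM in sham livers and reached 24006, 10253 and 19159 CPM after VSG. The lowest VSG library was 2.08 times the highest sham library. The log2 fold change was 2.03 (SE 0.408), or 4.07-fold, and the gene took 1.69% ± 0.654 of all counts in VSG livers. The ratio of Hpx to Hp counts was 1.3, 1.01 and 1.22 in sham livers and 1.38, 1.43 and 1.27 in VSG libraries, so the groups overlapped in this ratio while both genes were higher.

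The genes that take up and degrade what these carriers bind were measured in the same livers. Of 13 genes of haem and haemoglobin clearance, 7 rose, Blvrb fell and 5 did not pass the test, beside 6.79% of all genes that rose and 7.87% that fell, with a median log2 fold change of 0.45. Cd163, the receptor of the haptoglobin and haemoglobin complex, rose from 2.14, 11.1 and 5.74 CPM to 71.7, 47.8 and 130.4 CPM (a log2 rise of 3.73, or 4.40 without Sham 2, with SE 0.638 and adjusted p 0.0176). Lrp1 rose by 0.97 on the log2 scale (adjusted p 0.0201). Hmox1, the haem oxygenase that opens the haem ring, rose 4.33-fold (adjusted p 0.0163), and Spic, a transcription factor of macrophages that recycle red cells, rose 6.19-fold (adjusted p 0.0167). Blvrb, a biliverdin reductase, fell by 0.62 on the log2 scale (adjusted p 0.0245). The count of 8 became 2 without Sham 2 and 0 without Sham 3 or without VSG 6.

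Haemoglobin and other erythroid transcripts were scarce in both groups beside Hp and Hpx. The 6 erythroid markers summed to 161, 197 and 133 CPM in sham livers and 184, 209 and 284 CPM after VSG. By edgeR 0 of the 6 passed the adjusted p of 0.05, beside 14.7% of all genes. Of the 6, 1 passed an unadjusted p of 0.05, and 1 was called by DESeq2 and 0 by limma-voom.

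Lcn2 and Lbp meet bacterial products. Lcn2, or neutrophil gelatinase-associated lipocalin, binds bacterial siderophores and thereby withholds iron, and it is made by hepatocytes in the acute phase and by maturing neutrophils. Lbp carries LPS from Gram-negative bacteria to Cd14, Tlr4 and Ly96. Lcn2 (ENSMUSG00000026822.14) lies at chr2:32384633-32388252 on the minus strand and Lbp (ENSMUSG00000016024.9) at chr2:158306493-158332852 on the plus strand.

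Lcn2 had the second largest fold, after Orm2, and the widest spread in the VSG group. Its level was 204, 75.3 and 129 CPM in the sham libraries and 6621, 527 and 4062 CPM in the VSG libraries. VSG 4 was 12.6 times VSG 5. The log2 fold change was 4.78 (SE 0.949), or 27.5-fold, and it was 4.08 without VSG 4 and 5.27 without VSG 5.

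Neutrophil markers moved in the same libraries. Of 16 such genes 15 rose, all but Itgam (adjusted p 0.0518), beside 6.79% of all genes that rose, with a median log2 fold change of 6.67. Most had few sham counts and passed the filter through the VSG libraries, so that median is loosely known, and 4 were called when at least 10 counts were required in every library. Their summed level was 28.2, 9.27 and 13.1 CPM in sham livers and 2012, 180.3 and 938 CPM after VSG. It was highest in VSG 4 and lowest among the VSG libraries in VSG 5. Lcn2 followed that order, as did Orm1, Orm2, Orm3, Hp, Hpx, Lbp and Apcs. Of all genes called higher after VSG, 48.8% were highest in VSG 4 and 54.6% were lowest of the VSG libraries in VSG 5. Mpo, the myeloperoxidase of neutrophil granules, was read 15, 0 and 1 times in Sham 1, 2 and 3 and 3297, 137 and 1836 times in VSG 4, 5 and 6 (adjusted p 0.02), and S100a8 rose by 6.85 on the log2 scale (adjusted p 0.0166), or by 7.61 without Sham 1 and 5.84 without VSG 4. Mpo and Ly6g were at 0 in Sham 2 and Ctsg in Sham 3. The 16 markers together reached fewer CPM than Lcn2 alone in every library. The count of 15 became 3 without Sham 2 and 1 without Sham 3 or without VSG 6, and 4 by limma-voom. In bulk liver, more cells of a type and more RNA per cell cannot be told apart, and the part of neutrophils in the level of Lcn2 was not tested.

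**Figure D4:**
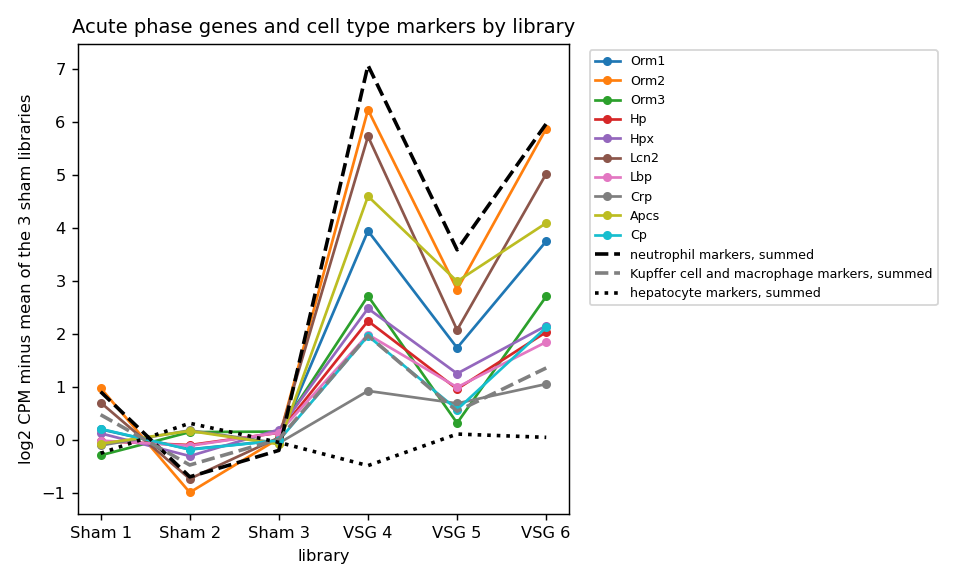
Log2 CPM of each acute phase gene (coloured lines) and of the summed neutrophil, Kupffer cell and macrophage, and hepatocyte markers (dashed and dotted lines) in every library, minus the mean of the 3 sham libraries. The acute phase genes and the neutrophil and macrophage sums dip at VSG 5, where the neutrophil sum was 180.3 CPM against 2012 CPM in VSG 4, while the hepatocyte sum is lowest in VSG 4, at 25313 CPM against 29746 to 44040 CPM in sham.

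Lbp moved less and more evenly. It stood at 137, 128 and 152 CPM in sham livers and reached 548, 275 and 497 CPM after VSG. The sham libraries lay within 1.18 times of each other, the log2 fold change was 1.66 (SE 0.265), and the fold was 3.16.

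Of 17 tested genes of LPS recognition, the partners of Lbp, 3 rose (Casp4, Tirap and Myd88) and 14 did not pass, beside 6.79% of all genes that rose, with a median log2 fold change of 0.51. Casp4, a caspase that senses LPS inside cells, rose by 2.26 on the log2 scale (adjusted p 0.0401). The adaptors Tirap and Myd88 rose by 0.90 (adjusted p 0.00645) and 0.71 (adjusted p 0.0495). Cd14, the next carrier of LPS, stood at 12.6, 6.12 and 8.81 CPM in sham livers and reached 429, 10.0 and 102 CPM after VSG. VSG 5 lay within the sham range for this gene, and it did not pass (log2 fold change 4.29, adjusted p 0.059, and 2.61 without VSG 4). Tlr4 and Ly96, the receptor pair, had log2 fold changes of 0.65 (adjusted p 0.182) and 0.15 (adjusted p 0.61). The count of 3 became 1 without any 1 library other than VSG 5, 8 without VSG 5, 7 by DESeq2 and 1 by limma-voom.

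Lipocalins share a barrel-shaped binding pocket, and other members of the family were tested beside Lcn2 and the orosomucoids. Of 12 listed genes 5 were abundant enough to test, and 2 of these rose, beside 6.79% of all genes that rose. Ambp, the precursor of alpha-1-microglobulin, rose by 1.17 on the log2 scale (adjusted p 0.0324), and Apom, the carrier of sphingosine-1-phosphate, rose by 1.10 (adjusted p 0.0167). Rbp4, the carrier of retinol, had a log2 fold change of -0.44 (adjusted p 0.417). The count of 2 became 1 without Sham 1, Sham 2 or VSG 4 and 0 without Sham 3 or VSG 6. Both genes are also in the list of negative acute phase genes below.

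Crp and Apcs encode the short pentraxins, ring-shaped proteins of 5 subunits that bind phosphocholine, chromatin and microbial surfaces and engage complement and Fc receptors. In mice Apcs, or serum amyloid P component, is the strong acute phase pentraxin, while Crp is a weak one, the reverse of humans. The genes lie close together on chromosome 1, Crp (ENSMUSG00000037942.5) at chr1:172698055-172833031 on the plus strand and Apcs (ENSMUSG00000026542.6) at chr1:172893961-172895041 on the minus strand. The annotated span of Crp is long for a gene of 3 exon blocks.

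Their promoters are shown because Crp and Apcs had the smallest and the third largest fold of the 10 genes. The 140 bases before the start site are at chr1:172697916-172698055 for Crp and at chr1:172895055-172895194 for Apcs, each written along its gene's strand (RefSeq, GRCm38.p6). Capitals mark the C/EBP letters TTNNGNAA in Crp and, in Apcs, the complement of the IL-6 response letters CTGGGAA.
Crp: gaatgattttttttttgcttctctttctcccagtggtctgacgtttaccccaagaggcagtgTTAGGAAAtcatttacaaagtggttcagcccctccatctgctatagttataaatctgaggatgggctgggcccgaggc
Apcs: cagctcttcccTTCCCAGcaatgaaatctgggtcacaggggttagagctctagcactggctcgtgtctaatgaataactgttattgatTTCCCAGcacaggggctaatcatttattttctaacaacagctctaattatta
In Crp the match begins 78 bases before the start site. In Apcs the matches begin 129 and 52 bases before it, and the STAT letters match further upstream, 244 bases before it.

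Apcs stood at 87.1, 103 and 86.5 CPM in the sham libraries and at 2215, 728 and 1560 CPM in the VSG libraries. It had the widest gap between the groups, since the lowest VSG library was 7.05 times the highest sham library. Its log2 fold change was 4.02 (SE 0.427), or 16.3-fold.

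Crp stood at 299, 364 and 308 CPM in sham livers and reached 609.7, 518 and 667 CPM after VSG. Both groups were narrow, with the VSG libraries within 1.29 times of each other. On the log2 scale Crp differed by 0.89 (SE 0.159), or 1.85-fold.

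The ratio of the pair differed between the groups. Apcs counts were 0.292, 0.284 and 0.281 times the Crp counts in sham livers, and 3.63, 1.41 and 2.34 times the Crp counts after VSG. The mean ratio was 0.285 ± 0.00563 against 2.46 ± 1.12 (SD, n = 3). Ratios of counts also carry the difference in transcript length, so they do not order the levels of the pair. Per deposited exon length Apcs and Crp were at 95 and 93.9 FPKM in sham livers, with Apcs above Crp in 2 of 3 libraries, and per coding transcript length at 95 and 191 FPKM.

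Other pentraxins and the Fc and complement genes that pentraxins engage mostly stayed short of the threshold. Of 14 such genes 10 were tested, and 10% of those were called, beside 14.7% of all genes. Nptx1, a neuronal pentraxin, fell by 3.11 on the log2 scale (adjusted p 0.0146) from a level of at most 1.44 CPM, and 9 did not pass. With 1, 4 and 4 counts in VSG 4, 5 and 6, Nptx1 passed the filter only through the sham libraries. When at least 10 counts were required in every library, 0 genes of this list were called. The inhibitory Fc receptor Fcgr2b was at 66.6, 74.0 and 76.0 CPM in sham livers and 68.8, 84.8 and 68.8 CPM after VSG, a log2 difference of 0.04 (SE 0.119, adjusted p 0.841). The sign of that difference turned negative when libraries were scaled by total counts. The long pentraxin Ptx3 had at most 2 counts in any library and was not tested. The count of 1 became 0 without Sham 3 or VSG 6 and 3 without VSG 5.

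Ceruloplasmin carries most of the copper in plasma and, as a ferroxidase, helps iron leave cells and bind transferrin. Cp (ENSMUSG00000003617.16) lies at chr3:19957054-20009145 on the plus strand, and 108 of its exon bases overlap Hps3 on the opposite strand. Hps3 averaged 13.7 CPM in sham livers and 16.9 CPM after VSG, a log2 difference of 0.30 (adjusted p 0.204), which is small beside the level of Cp.

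Cp stood at 2242, 1710 and 1927 CPM in the sham libraries and at 7561, 2886 and 8442 CPM in the VSG libraries. VSG 5 was 1.29 times the highest sham library. The log2 fold change was 1.68 (SE 0.424), or 3.21-fold, and it was 1.42 without VSG 6 and 2.01 without VSG 5.

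Iron handling genes moved in both directions. Of 21 tested, 4 rose, 5 fell and 12 did not pass, beside 14.7% of all genes called, with a median log2 fold change of -0.08. Hamp, which encodes the iron hormone hepcidin, rose from 128, 57.2 and 34.6 CPM to 575, 675 and 225 CPM (a log2 rise of 2.74, or 3.41 without Sham 1, with SE 0.600 and adjusted p 0.0313). Its near-identical neighbour Hamp2, with which reads may have been exchanged, fell from 13.3, 15.9 and 12.2 CPM to 0.226, 0.727 and 0.572 CPM (a log2 change of -4.74, with SE 0.349 and adjusted p 0.00197). Hamp2 was read 5, 17 and 12 times in VSG 4, 5 and 6 and passed the filter only through the sham libraries. Slc39a14, an importer of zinc and iron, rose by 1.07 (adjusted p 0.0313), while Heph, a ferroxidase related to Cp, fell by 0.89 (adjusted p 0.0374) and the ferritin light chain Ftl1 fell by 0.80 on the log2 scale (adjusted p 0.0141). Ltf, lactoferrin, which is also 1 of the 16 neutrophil markers, rose by 7.46 (adjusted p 0.0179) from sham counts of 43, 3 and 7. That value was 9.17 without Sham 1 and 6.44 without VSG 4. With so few sham counts Ltf passed the filter only through the VSG libraries. When at least 10 counts were required in every library, 7 iron handling genes were called.

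The iron exporter Slc40a1, which ceruloplasmin assists, had a log2 fold change of 0.71 (adjusted p 0.107). The transferrin receptor Tfrc had one of -0.18 (adjusted p 0.741), and Slc22a17, a receptor of Lcn2, one of 0.72 (adjusted p 0.116). The count of 9 became 4 without Sham 1, 3 without Sham 2, 1 without Sham 3, 4 without VSG 4 and 1 without VSG 6.

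Set side by side per length of transcript (FPKM, CPM per kilobase of exon), the 10 genes spanned a wide range of abundance. In sham livers the order of mean levels was Hpx (2915 ± 516), Hp (2305 ± 191), Orm1 (532 ± 70.3), Cp (205 ± 27.9), Apcs (95 ± 9.74), Crp (93.9 ± 10.2), Orm2 (59.7 ± 38.2), Lcn2 (51.8 ± 24.6), Lbp (28.8 ± 2.44) and Orm3 (16 ± 2.65) FPKM. Of the 9 pairs of neighbours in that order, 4 did not overlap between libraries: Hp and Orm1, Orm1 and Cp, Cp and Apcs, and Lbp and Orm3. In VSG livers the order was Hpx (11879 ± 4654), Hp (8234 ± 3349), Orm1 (5642 ± 3405), Orm2 (2404 ± 1814), Apcs (1546 ± 768), Lcn2 (1425 ± 1167), Cp (658 ± 312), Crp (174 ± 21.9), Lbp (91.1 ± 30.1) and Orm3 (75.4 ± 48.2) FPKM (SD, n = 3).

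In the VSG order only Cp and Crp, and Crp and Lbp, did not overlap, so the places of the upper 7 were not settled by their spread. With the deposited length Hpx nevertheless exceeded Hp, and Hp exceeded Orm1, in each of the 6 libraries. For Lcn2, Lbp, Crp and Cp the deposited exon length far exceeds the longest coding transcript, at 2623 against 915 bases for Lcn2. With the coding transcript length instead, Lcn2 in VSG livers stood at 4084 ± 3344 FPKM and ranked 4, above Orm2. Hpx, Hp and Orm1 kept ranks 1 to 3 and Orm3 rank 10 in both groups with either length.

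The remaining positive acute phase genes were counted from a list written with earlier results of these data known. Of 34 genes 21 rose and 13 did not pass, with a median log2 fold change of 1.98, beside 6.79% of all genes that rose. Saa2 and Saa1, serum amyloid A genes, had the largest folds. Saa2 rose from 108, 48.7 and 79.1 CPM to 11917, 2072 and 8063 CPM (a log2 rise of 6.54, with SE 0.788 and adjusted p 0.00809), and Saa1 rose by 5.87 (SE 0.689, adjusted p 0.00783). Saa3, which macrophages also make, rose by 4.86 (adjusted p 0.0121), or 4.01 without VSG 4, and Saa4 by 1.84 (adjusted p 0.0167), below the median of the list. Saa1 and Saa2 are near-identical, so reads may have been exchanged between them.

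The protease inhibitor Serpina1e rose by 5.72 on the log2 scale (adjusted p 0.0154), and its sham libraries differed widely, with the highest at 242 CPM in Sham 2. Without Sham 2 the value was 6.78, and without Sham 3 it was 5.22. Serpina1e belongs to a family of near-identical genes. Serpina3n, another serine protease inhibitor, rose by 2.11 (adjusted p 0.0217). Fgg, a fibrinogen chain, rose from 2290, 2196 and 1902 CPM to 11934, 8958 and 11111 CPM (adjusted p 0.00721), Itih4 rose by 1.69 (adjusted p 0.0101) and the complement protein C3 by 1.79 (adjusted p 0.0275). Fgg and Itih4 were nearly even over the 3 VSG libraries, unlike the orosomucoids and Lcn2. The count of 21 became 4 without Sham 3 and 6 without VSG 6.

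Among negative acute phase genes, 5 of 19 rose and 14 did not pass, beside 6.79% of all genes that rose, with a median log2 fold change of 0.16. By edgeR 0 fell at the adjusted p of 0.05 and 3 at an unadjusted p of 0.05, while DESeq2 called 3 lower and limma-voom 0. Alb, albumin, had a log2 fold change of -0.30 (SE 0.480, adjusted p 0.687) and Ttr, transthyretin, one of -0.83 (SE 0.295, adjusted p 0.103). For Ttr every VSG library lay below every sham library, at 1415 to 2455 CPM against 2571 to 4168 CPM. Fetub, a fetuin, rose 2.82-fold (adjusted p 0.0191), as did Ambp and Apom above. The count of 5 became 3 without Sham 1, Sham 2 or VSG 4, 0 without Sham 3 or VSG 6, and 11 by DESeq2.

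Of 39 tested genes of cytokine signalling, which relay the acute phase signal, 7 rose, 2 fell and 30 did not pass, which is 23.1% called beside 14.7% of all genes, with a median log2 fold change of 0.31. Il6 itself had 0 to 5 counts in any library and was not tested. Il1b rose 3.73-fold (adjusted p 0.0314), and Tnf had a log2 fold change of 1.06 (adjusted p 0.258), which was 0.19 without VSG 4. The shared receptor chain Il6st rose 1.52-fold (adjusted p 0.0218) and Il1r1 rose 6.38-fold (adjusted p 0.0212), while Il6ra had a log2 fold change of -0.08 (SE 0.376, adjusted p 0.894).

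Stat3 rose from 130.4, 131 and 117 CPM to 256, 231 and 283 CPM (a log2 rise of 1.02, with SE 0.124 and adjusted p 0.00809). Socs3, the feedback inhibitor that Stat3 induces, rose 5.41-fold (adjusted p 0.0104). VSG 5 was the lowest VSG library for both, though by far less than for the orosomucoids. Ctf1, a cytokine of the IL-6 family, fell by 0.93 on the log2 scale (adjusted p 0.0268). Cebpb and Cebpd had log2 fold changes of -0.45 (adjusted p 0.459) and -0.05 (adjusted p 0.947), and the sign of each turned when Sham 2 was left out. The count of 9 became 4 without Sham 2, 0 without Sham 3 and 2 without VSG 6.

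**Figure D5:**
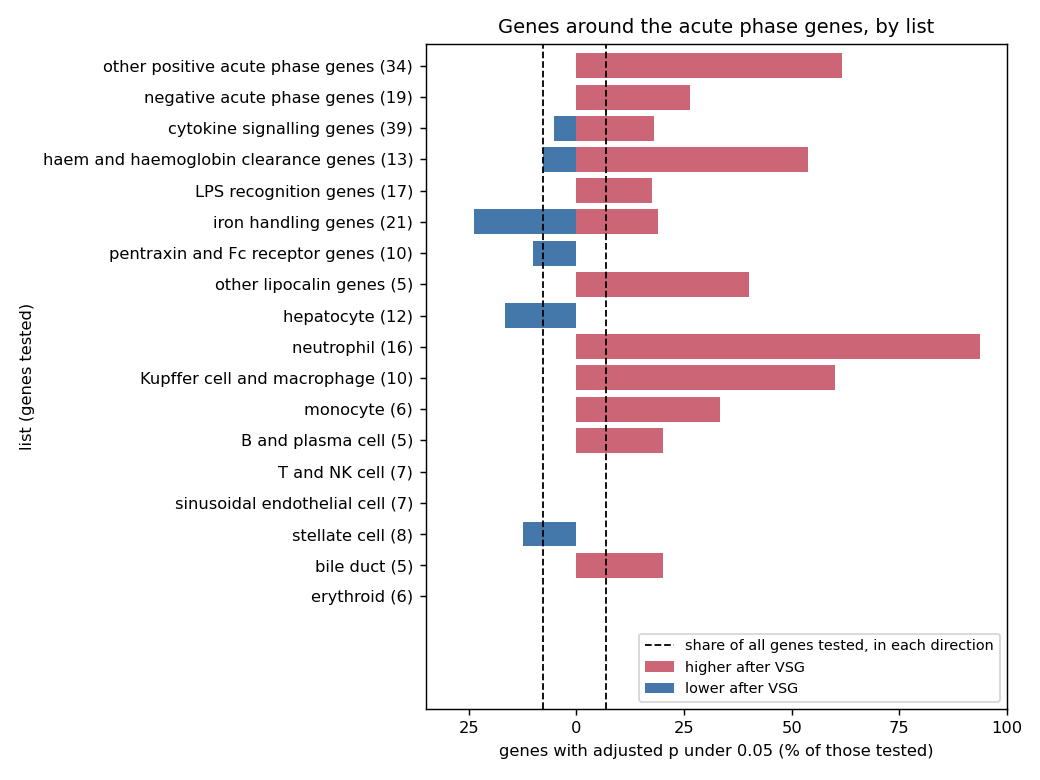
Share (%) of the tested genes of each list with an adjusted p under 0.05, higher after VSG to the right and lower to the left, with the number tested in brackets and the shares of all genes tested, 6.79% and 7.87%, as dashed lines. Of the positive acute phase genes 21 of 34 lie to the right, and of the macrophage markers 6 of 10. Neutrophil markers stand at 15 of 16, but most passed the filter through the VSG libraries, and 4 were called with at least 10 counts in every library.

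Markers of other liver cell types were counted in the same way, beside 14.7% of all genes called. Of 10 Kupffer cell and macrophage markers 6 rose and 4 did not pass, with summed levels of 426 to 822 CPM in sham livers and 861 to 2315 CPM after VSG. Clec4f, a receptor of resident Kupffer cells, rose 2.34-fold (adjusted p 0.026). This list bears on Cd163, Hmox1 and Spic above, which macrophages express. The count of 6 became 0 without Sham 2, Sham 3 or VSG 6, 2 without VSG 4, and 3 when libraries were scaled by total counts. None of the 10 markers is at 0 in any library.

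Of 6 monocyte markers 2 rose, and their summed levels were 22.4 to 56.5 CPM in sham livers and 39.6 to 278 CPM after VSG, with VSG 5 inside the sham range. Of 5 tested B and plasma cell markers Jchain rose, and of 5 tested bile duct markers Sox9 rose. The other tested bile duct markers, Krt19, Krt7, Epcam and Spp1, had log2 fold changes of -0.76, -0.84, -1.20 and -0.45. They did not pass, and the median of the bile duct list was -0.76. Of 8 stellate cell markers Reln fell, with a list median of -0.96. The monocyte count became 1 without Sham 1 or VSG 4, 0 without Sham 2, Sham 3 or VSG 6, and 3 without VSG 5. In each such fit 1 B and plasma cell marker was called, and Sox9 in none without a sham library or VSG 6. Stellate markers numbered 0 without Sham 1, Sham 3 or VSG 6, 2 without VSG 4 and 4 without VSG 5. At an unadjusted p of 0.05 by edgeR 7 of the 8 stellate markers were lower, while DESeq2 called 5 lower and limma-voom 1. By edgeR 0 of 7 T and NK cell markers and 0 of 7 sinusoidal endothelial markers passed, 1 and 0 of them passed an unadjusted p of 0.05, and DESeq2 and limma-voom called 0 in both. The part of each cell type in the levels of the 10 acute phase genes was not tested.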

How the data were processed

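Liver poly(A) RNA of 3 sham and 3 VSG mice was sequenced from strand-specific libraries. The authors aligned reads to mm10 with STAR (2.6.0) and deposited raw read counts per gene from featureCounts (2.0.3 in the submitters' processing notes), with the summed exon length of each gene. Annotation release, strand option, read length and treatment of reads fitting several genes were not given in the sources used here. Symbols came from GENCODE M21.

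Groups came from the sample titles. The test was edgeR's quasi-likelihood test (edgeR 4.0.16, R 4.3.3, filterByExpr with minimum count 10 and minimum total 15, TMM, glmQLFit, glmQLFTest, Benjamini-Hochberg over 14454 genes), after a check on simulated data. Standard errors came from the ratio of a fold change, in log2, to the root of its F statistic.

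The acute phase genes and the lists (other positive and negative acute phase, cytokine signalling, haem clearance, LPS recognition, iron, pentraxin and Fc receptor, lipocalin, and 10 cell type marker lists) were chosen with earlier results of these data known. Named genes were the 10 genes, up to 3 called genes with the largest fold in each direction of each pathway list, a fixed set of receptors, ligands and markers, the 5 genes of most similar profile and called or overlapping neighbours within 100 kb. Any other gene was named after its values were seen, and some genes of the lists are not reported here by name. Alternatives were DESeq2 1.42.0, limma-voom (limma 3.58.1), RLE, total counts, other filters, a prior count of 2 and each library left out. The coding transcript length was added after seeing the data.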

Additional observations from a re-analysis of the deposited data

How the results depend on the processing

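No paired analysis was possible because the sample numbers are not shared between the groups. The log2 fold changes of the 10 acute phase genes kept their direction in all 130 refits. That is no result, because the genes were chosen on this comparison and their groups did not overlap. Refits of the same libraries could therefore hardly turn a sign. Calls hung on single libraries: with 1 library left out, the number with an adjusted p under 0.05 ran from 159 to 2732 for all genes, 1 to 10 for the 10 acute phase genes (no result, since they were chosen on this comparison), 4 to 24 for the other positive acute phase genes, 0 to 7 for the negative ones, 0 to 13 for cytokine signalling, 0 to 7 for haem clearance, 1 to 8 for LPS recognition, 1 to 11 for iron handling, 0 to 3 for pentraxins and Fc receptors and 0 to 2 for other lipocalins. Among markers it ran from 0 to 4 for hepatocytes, 1 to 16 for neutrophils, 0 to 7 for Kupffer cells and macrophages, 0 to 3 for monocytes, 0 to 1 for T and NK cells, 0 to 4 for stellate cells and 0 to 1 for bile ducts. DESeq2 called 3288 genes, 11 of the negative acute phase, 7 of the LPS recognition and 2 of the pentraxin and Fc receptor genes, 4 hepatocyte, 5 stellate and 1 erythroid marker. Limma-voom called 1 LPS recognition gene, 4 neutrophil, 1 monocyte and 0 bile duct markers. Without the filter the counts were 5 for LPS recognition, 2 for pentraxins and Fc receptors, 3 for stellate and 1 for erythroid markers, and with at least 10 counts in every library 0 for pentraxins and Fc receptors and 4 for neutrophils, since fewer genes were tested. With total counts they were 3 for Kupffer cells and 2 for stellate cells. Signs of log2 fold changes turned, with the range over left-out libraries, for Cebpb (-0.74 to 0.12, positive without Sham 2), Cebpd (-0.29 to 0.52, positive also without VSG 5 at 0.25), Fcgr2b (-0.09 to 0.09, negative also without Sham 1 at -0.02 and with total counts at -0.10), Il6ra (-0.40 to 0.34, positive without Sham 2 and, at 0.04, without VSG 4, and 0.00 by limma-voom) and Tfrc (-0.41 to 0.10, positive without VSG 5), none of which passed the test. The cause of the other changes was not tested.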

Other observations

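The genes whose profile over the 6 libraries came closest to the mean profile of the 10 acute phase genes were ranked among 9965 genes of at least 5 CPM on average, by the root mean square difference of log2 CPM after removing each gene's mean. Steap4, a metalloreductase of iron and copper, came first with a difference of 0.114, at 367, 248 and 314 CPM in sham livers and 2470, 748 and 2525 CPM after VSG. It was followed by Spic (0.158), Tifa (0.332), Runx1 (0.355) and Itih3 (0.357). For comparison Orm1 itself lay at 0.302 from that mean profile and Orm2 at 1.37. The ranking is a description over 6 libraries that share their depth and scaling.

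Around the 10 genes, 62 other annotated genes lay within 100 kb, of which 32 were tested, 5 rose and 1 fell (18.8% called, beside 14.7% of all genes). Trim3, Arfip2 and Dnhd1, which lie 4.33, 34.1 and 50.7 kb from Hpx, rose by 0.61, 0.49 and 1.61 on the log2 scale (adjusted p 0.0361, 0.0398 and 0.0296), and Snhg17 near Lbp rose by 0.48 (adjusted p 0.0325). Col27a1, which ends 9.57 kb before Orm1, fell by 1.87 (adjusted p 0.0359). Olfr16, an olfactory receptor gene 55.4 kb from Apcs on the opposite strand, was read 6, 1 and 2 times in sham livers and 281, 48 and 189 times after VSG. It is 1 of the 5 that rose, but with so few sham counts it passed the filter only through the VSG libraries.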
